A study of Gossypium hirsutum with 12 samples.

Results

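APY1 (LOC107937027) and PAP10 (LOC107908811) are 2 genes of upland cotton (Gossypium hirsutum) whose products release phosphate from other molecules. Each was measured by 1 probe set, Ghi.9549.1.S1_x_at for APY1 and GhiAffx.2577.1.A1_s_at for PAP10, so the description covers 2 of the 24132 probe sets on the array. The genes were chosen from earlier results of these same arrays, in which APY1 had fallen at 42 °C in the cultivar Sicala 45 and PAP10 had fallen at 42 °C averaged over both cultivars. Their changes with temperature are therefore given as values with no test. For these 2 genes, differences between groups are tested only in comparisons that are independent of that choice. Both probe sets passed the filter that left out the dimmest 30% of probe sets.

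Leaf RNA was hybridised to 12 Affymetrix Cotton arrays, in 4 groups of 3. The groups were Sicala 45 and Sicot 53, a pair of cotton cultivars, each in a growth cabinet held at 32 °C or at 42 °C by day. The plants were grown in field soil, were well watered, and settled for 4 d at day and night temperatures of 32 and 25 °C, the night temperature kept in both treatments. The third youngest fully expanded leaf was taken at the first-square stage. The heated plants were brought into the cabinet once the controls were out. Temperature and cabinet run therefore cannot be told apart, while the cultivars shared each run as far as the labels describe it. The labels do not say whether the 3 leaf samples of a group came from separate plants, and p-values measure only the spread between these samples. In whole leaves, fewer cells of a type and less RNA per cell cannot be told apart.

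Apyrases cut ATP and ADP, and other nucleoside tri- and diphosphates, down to monophosphates and release free phosphate. In plants they work in the Golgi, where they clear nucleoside diphosphates left by sugar transfer, and they limit the ATP outside the cell that acts as a signal. In cotton they have been studied mainly in the growing seed fibre. Purple acid phosphatases carry a pair of metal ions that colours them, and they free phosphate from organic esters. In Arabidopsis, PAP10 sits on the root surface and is made when phosphate is scarce. Cotton is tetraploid, and the endings _x_at and _s_at mark probe sets whose probes may also pair with transcripts of similar genes. The copies of a gene may thus share one signal. Values are MAS5 signals, a summary of probe brightness in arbitrary units, and cannot be compared between genes.

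APY1 was high in the leaves at 32 °C and low in those at 42 °C, most clearly in Sicala 45. In Sicala 45 its signal at 32 °C was 677, 521 and 438 in replicates 1 to 3. At 42 °C the signal was 145, 227 and 170. Every 42 °C array of Sicala 45 thus lay below every 32 °C array of that cultivar. In Sicot 53 the 32 °C arrays gave an APY1 signal of 331, 353 and 591. The 42 °C arrays of Sicot 53 gave 349, 193 and 217. Here the groups overlapped, since replicate 1 at 42 °C was above replicate 1 at 32 °C.

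Group means of the APY1 signal were 545 ± 121 (SD, n = 3) in Sicala 45 at 32 °C and 425 ± 144 in Sicot 53 at 32 °C. They were 253 ± 84.0 in Sicot 53 at 42 °C and 181 ± 42.1 in Sicala 45 at 42 °C. In that order, no group was parted from its neighbour, as the arrays of each pair of neighbours overlapped. On the scale of log2(signal + 16), on which all differences below are given, the APY1 change from 32 to 42 °C was -1.51 ± 0.30 (SE of the limma model) in Sicala 45, which is 2.85-fold lower. In Sicot 53 it was -0.71 ± 0.30, or 1.64-fold lower, and averaged over cultivars it was -1.11 ± 0.21, or 2.16-fold lower. Leaving out Sicot 53 at 32 °C replicate 3, the highest of its group, brought the Sicot 53 change to -0.46.

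PAP10 was likewise high at 32 °C and lower at 42 °C, and its 42 °C arrays were far more uneven. In Sicala 45 the PAP10 signal at 32 °C was 1545, 1340 and 1166 in replicates 1 to 3. At 42 °C it was 828, 351 and 375. In Sicot 53 the 32 °C arrays gave a PAP10 signal of 1134, 1464 and 1450. The 42 °C arrays gave 1101, 373 and 922. In both cultivars every 42 °C array lay below every 32 °C array, but in Sicot 53 the gap was narrow, between 1101 in replicate 1 at 42 °C and 1134 in replicate 1 at 32 °C. Of all 16820 tested probe sets, 4.26% had every 42 °C array below every 32 °C array in both cultivars. In Sicala 45 alone, where APY1 met this too, the share was 11%, and in Sicot 53 alone it was 11.7%.

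**Figure D1:**
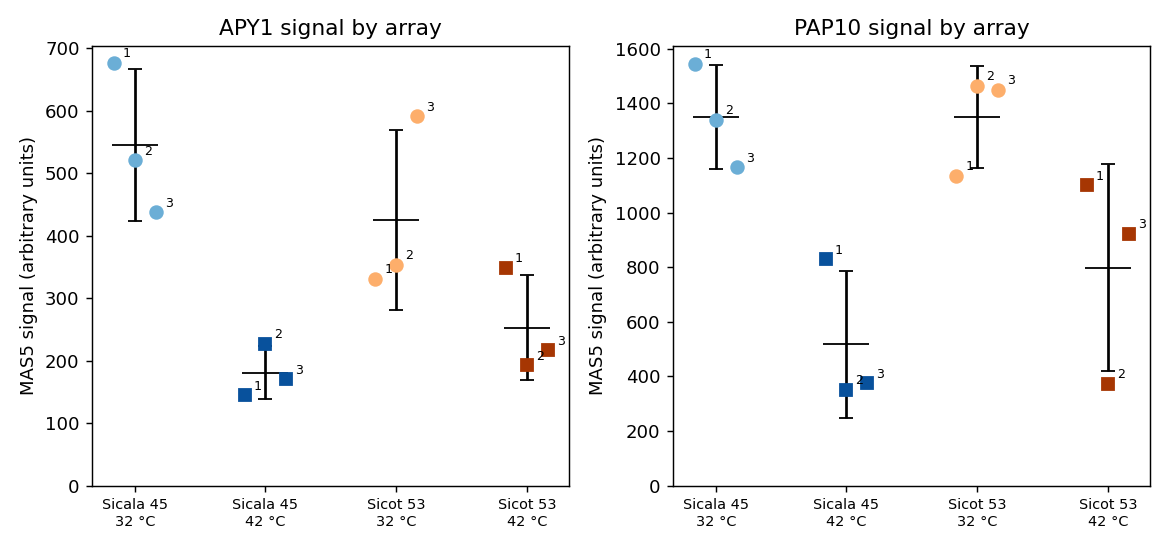
MAS5 signal of APY1 (left) and PAP10 (right) on each of the 12 arrays, in arbitrary units on axes that start at 0. Points are arrays with their replicate number, and bars are group means with the SD of 3 arrays. The 42 °C arrays of Sicala 45 lie below the 32 °C arrays for both genes, and PAP10 at 42 °C splits into 3 arrays between 351 and 375 and 3 between 828 and 1101.

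Mean PAP10 signals were 1350.2 ± 189.6 (SD, n = 3) in Sicala 45 and 1349.5 ± 187 in Sicot 53 at 32 °C. At 42 °C they were 799 ± 379 in Sicot 53 and 518 ± 269 in Sicala 45. The coefficient of variation of the PAP10 signal was 14.0% and 13.8% at 32 °C and 51.8% and 47.5% at 42 °C, in Sicala 45 and Sicot 53 in that order. For APY1 it was 22.2% and 33.9% at 32 °C and 23.3% and 33.2% at 42 °C. The 2 groups at 32 °C overlapped for PAP10, as did the 2 at 42 °C, and only the step from Sicot 53 at 32 °C to Sicot 53 at 42 °C parted neighbouring groups.

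The PAP10 change from 32 to 42 °C was -1.45 ± 0.39 (SE) in Sicala 45, or 2.74-fold lower, and -0.87 ± 0.39 in Sicot 53, or 1.83-fold lower. Averaged over cultivars it was -1.16 ± 0.28, or 2.24-fold lower. The median change of all tested probe sets for averaged heat was -0.05. Of these, 1.79% had a more negative value than PAP10 and 2.16% a more negative value than APY1. Single arrays weighed on the Sicot 53 value: without replicate 2 at 42 °C, the low array, the PAP10 change there was -0.41, and without replicate 1 at 42 °C it was -1.17.

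The low PAP10 arrays at 42 °C were also those with the highest ratio of the 3' to the 5' actin probe set, a measure of RNA quality and of how far labelling ran that is higher when less of the 5' end is present. The 3 arrays with PAP10 signals of 351, 375 and 373 had actin ratios of 14.7, 12.8 and 18.6. The 3 with signals of 828, 1101 and 922 had ratios of 8.03, 6.02 and 7.84. Across the 6 arrays at 42 °C, the PAP10 log2 level and the log2 actin ratio had r = -0.956 (exact permutation p = 0.0181) and Spearman's rho = -0.943 (exact permutation p = 0.0167). Without the 2 arrays farthest from the median ratio, r was -0.991. This was 1 of 8 such relations, computed after the values had been seen, of 2 genes with 2 ratios at 2 temperatures. Neither value passed after Benjamini-Hochberg adjustment over the 8 (exact permutation, adjusted p = 0.144 for r and 0.133 for rho). Of all tested probe sets, 0.713% had an r with the actin ratio at 42 °C as negative as that of PAP10.

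At 32 °C both genes had negative values of r with the actin ratio, and neither passed. The 3 arrays with APY1 signals of 677, 521 and 591 had ratios of 7.98, 9.003 and 8.18, and those with 438, 331 and 353 had ratios of 13.5, 12.1 and 12.6. Across these 6 arrays r was -0.872 (exact permutation p = 0.0542, adjusted p = 0.217) and rho was -0.771 (exact permutation p = 0.103, adjusted p = 0.411). The r was -0.983 without the 2 arrays farthest from the median ratio. Of the 6 other values of r, PAP10 had -0.669 with the actin ratio at 32 °C and -0.657 and -0.712 with the ubq11 ratio at 32 and 42 °C. APY1 at 42 °C had -0.396 with the actin ratio and -0.002 with the ubq11 ratio, and at 32 °C -0.170 with the ubq11 ratio. None of these passed (exact permutation, adjusted p at least 0.269).

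**Figure D2:**
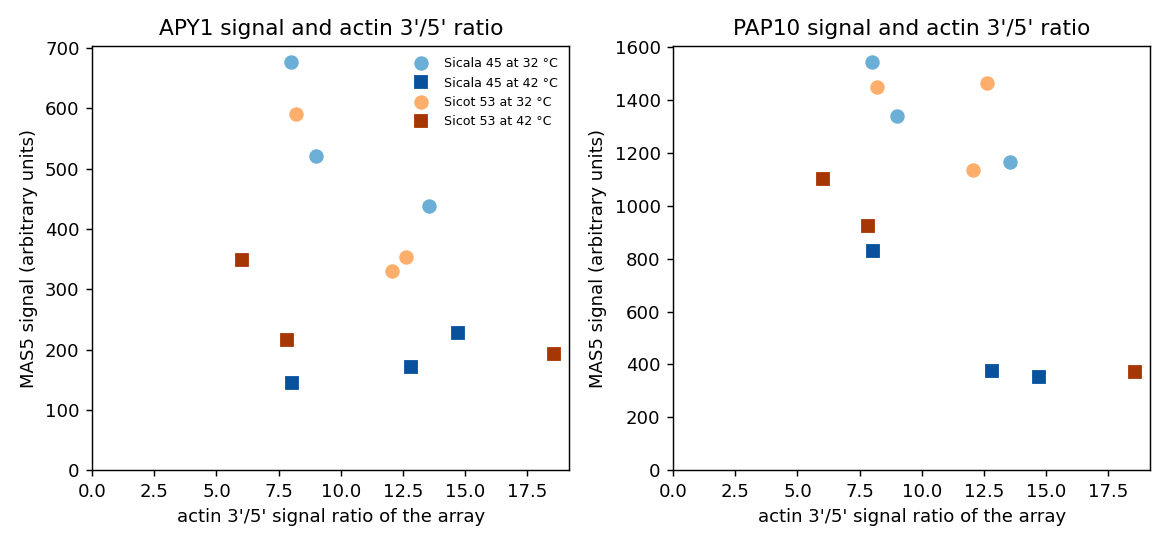
Signal of APY1 (left) and PAP10 (right) against the actin 3'/5' signal ratio, a plain ratio of 2 signals, with 1 point for each of the 12 arrays. Circles are 32 °C arrays and squares are 42 °C arrays, in blue for Sicala 45 and in orange or brown for Sicot 53. PAP10 at 42 °C lies at 351 to 375 where the ratio is 12.8 or more and at 828 to 1101 where it is 8.03 or less, and the 42 °C arrays of Sicala 45 lie below its 32 °C arrays for both genes.

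The actin ratio spanned 7.98 to 13.5 at 32 °C and 6.02 to 18.6 at 42 °C, and the ubq11 ratio 4.73 to 10.7 and 6.39 to 41.5. With the mean of the 2 log2 ratios as a covariate, the PAP10 change averaged over cultivars was -0.71 ± 0.15 (SE), and it was -1.10 ± 0.20 in Sicala 45 and -0.33 ± 0.21 in Sicot 53. The APY1 changes in the same fit were -0.99 ± 0.23, -1.41 ± 0.29 and -0.56 ± 0.31. The poly-A spikes, bacterial transcripts that are mixed into the RNA as controls, were 1.42-fold brighter at 42 °C than at 32 °C. Scaling each array to them made the falls larger, -1.59 for APY1 and -1.66 for PAP10 averaged over cultivars, and moved the median of all tested probe sets to -0.51.

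The cultivars were then compared with each other, averaged over both temperatures. With equal groups this comparison is independent of the temperature changes by which the genes had been chosen. APY1 differed by +0.03 ± 0.21 (SE) in Sicot 53 over Sicala 45 (limma adjusted p = 0.9999), with a 95% interval of -0.43 to +0.48, or 0.743-fold to 1.40-fold. The sign of this value turned with scaling to the spikes (-0.27) and with array weights (-0.15), so it has no settled direction. PAP10 differed by +0.29 ± 0.28 (limma adjusted p = 0.9999), with an interval of -0.31 to +0.89, or 0.807-fold to 1.85-fold, and -0.01 under scaling to the spikes. Neither gene was called, where 32 of 16820 probe sets were, or 0.19%, with 0.0892% higher and 0.101% lower in Sicot 53. A difference between cultivars of 2-fold lies outside both intervals, and smaller ones inside them could not be told from none with 3 arrays a group.

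At 32 °C the difference of Sicot 53 over Sicala 45 was -0.37 ± 0.30 (SE) for APY1 and 0.00 ± 0.39 for PAP10. At 42 °C it was +0.43 ± 0.30 for APY1 and +0.58 ± 0.39 for PAP10. Both genes thus had the higher mean in Sicot 53 at 42 °C, with arrays that overlapped between the cultivars. These 4 values are given without a test.

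**Figure D3:**
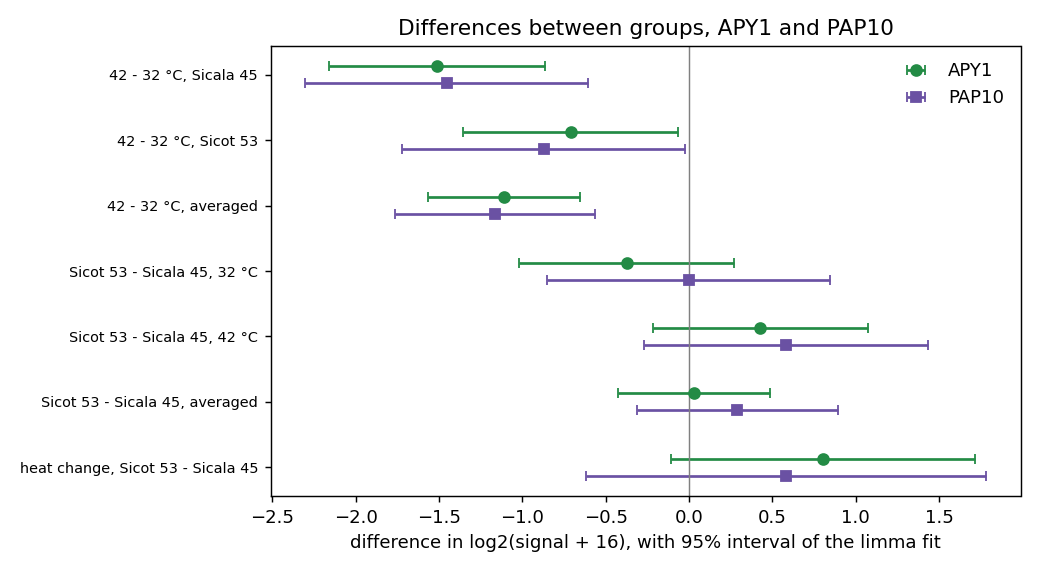
Differences between groups on the scale of log2(signal + 16) for APY1 (circles) and PAP10 (squares), with 95% intervals of the limma fit. The changes from 32 to 42 °C, by which the genes were chosen, are negative for both genes in both cultivars, and every interval of a cultivar difference includes 0.

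The last comparison asked whether the change with temperature differed between cultivars. For PAP10 the change in Sicot 53 was less negative than that in Sicala 45 by 0.58 ± 0.55 (SE), which did not pass (limma adjusted p = 0.9999), with a 95% interval of -0.62 to +1.78. For APY1 it was less negative by 0.80 ± 0.42, with an interval of -0.11 to +1.71, and no test is given because the change in Sicala 45 had been used to choose it. No probe set of the 16820 passed this comparison in limma (0%), and 321 had an unadjusted p under 0.05. That is a smaller share than the 0.05 that would be reached on average with no difference at all. A cultivar difference of 2-fold in the temperature change is inside both intervals.

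Across the 12 arrays the log2 levels of APY1 and PAP10 went together at r = 0.769, a description that includes the temperature difference shared by all arrays. Among the 257 other named probe sets tested, PAP10 was 14th closest to APY1 by this measure, and APY1 was 13th closest to PAP10. Within a temperature the 2 genes were not clearly related. Over the 6 arrays at 32 °C, r was 0.623 (exact permutation p = 0.204, adjusted over 2 relations 0.408) and rho 0.657 (exact permutation p = 0.175, adjusted 0.350). That r rested on the 2 arrays farthest from the median, as it was 0.041 without them. Over the 6 arrays at 42 °C, r was 0.382 (exact permutation p = 0.490, adjusted 0.490), 0.344 without the 2 farthest arrays, and rho was 0.200 (exact permutation p = 0.714, adjusted 0.714).

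The named gene with the pattern most like that of PAP10 was PAP1 (LOC107905479, probe set Ghi.10710.2.S1_s_at), at r = 0.892 over 12 arrays. The name PAP1 has been given to acid phosphatases and to other kinds of protein, and the gene table does not say which this is. Its signal at 32 °C was 992, 596 and 327 in Sicala 45 and 625, 863 and 501 in Sicot 53. At 42 °C it was 354, 206 and 201 in Sicala 45 and 393, 127 and 316 in Sicot 53. The 3 arrays low for PAP10 at 42 °C were also the 3 lowest for PAP1, and within the 42 °C arrays r between them was 0.900. PAP1 fell at 42 °C averaged over cultivars (log2 change -1.25 ± 0.32 SE, 2.37-fold lower, limma adjusted p = 0.0321), where 4.59% of tested probe sets were called lower.

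The PAP1 call depended on single arrays, although its value stayed between -1.45 and -1.02 without any one of them. PAP1 had an r of -0.973 with the actin ratio over the 6 arrays at 42 °C, a value given as a description. Since PAP1 is named here also for its likeness to PAP10, its fall is not independent of that choice. With the ratio covariate it was -0.81 (limma adjusted p = 0.0759), and leaving out any 1 of 8 arrays ended the call (adjusted p at most 0.0799). It held without replicate 3 at 32 °C or replicate 1 at 42 °C of either cultivar. A second probe set of PAP1, Ghi.10710.1.A1_at, had a change of +0.08 ± 0.29 (limma adjusted p = 0.903). The 2 probe sets of the gene thus gave unlike values, and their difference was not tested.

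Among the named genes, next to PAP10 came COL5-D (r = 0.861), MFP (0.853), the small GTPase Rab7 (0.843) and Mn-SOD (0.838), a manganese superoxide dismutase. Of the named genes, closest to APY1 was 1 probe set of GRPL1 (LOC107953490), at r = 0.919, or 0.876 within the 32 °C arrays and 0.542 within the 42 °C arrays. Its signal at 32 °C was 592, 297 and 307 in Sicala 45 and 269, 287 and 506 in Sicot 53. At 42 °C it was 162, 129 and 85.3 in Sicala 45 and 213, 129 and 108 in Sicot 53. Replicate 1 of Sicala 45 and replicate 3 of Sicot 53, the 2 highest 32 °C arrays for APY1, were also the 2 highest for this probe set. Other probe sets of GRPL1 differed. At r = 0.871 with APY1, another was highest at 32 °C in replicate 3 of Sicala 45 (572) and of Sicot 53 (567). A further one, at r = 0.662, was highest in replicates 2 (419) and 3 (395) of Sicot 53. The signal of the remaining probe set was at most 16.2. The next named genes were ARF1 (r = 0.846), PK1 (0.844), CAP (0.836) and CCR1 (0.816). Most probe sets have no name here, and many of all those tested were closer. With APY1, 0.113% of all tested probe sets had a higher r than GRPL1, and 2.29% a higher r than CCR1. With PAP10, 1.005% had a higher r than PAP1, and 2.75% a higher r than Mn-SOD. The temperature difference that the arrays share enters every one of these r values, so they describe likeness over these arrays only. Genes picked in this way tend to have negative heat values through the choice itself. Their heat calls are not counted here, apart from that of PAP1, which is also on a gene list.

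**Figure D4:**
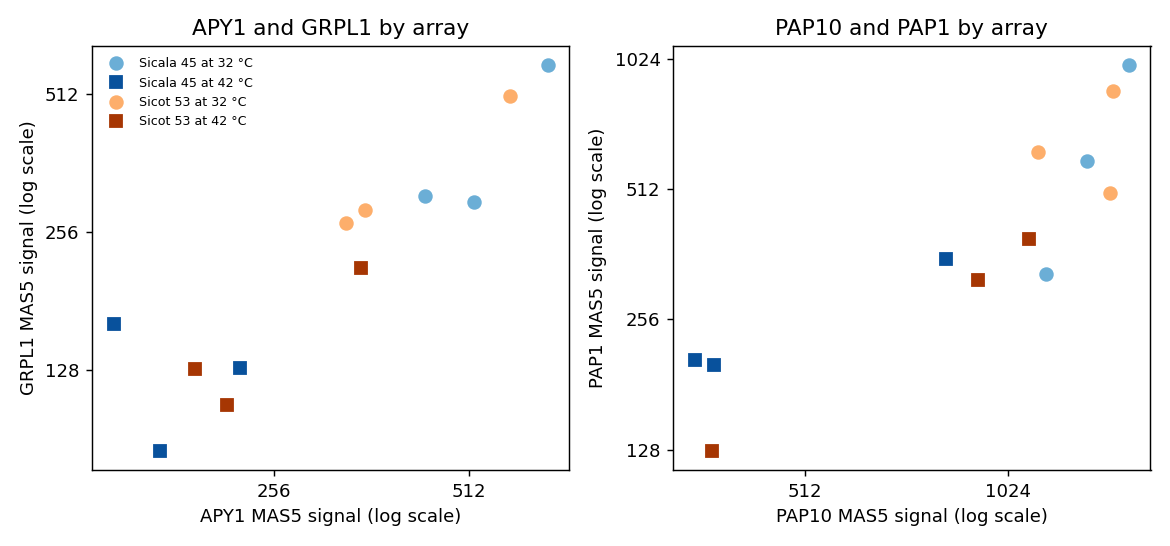
Signal of GRPL1 against APY1 (left) and of PAP1 against PAP10 (right), 1 point for each of the 12 arrays, on log scales. Circles are 32 °C arrays and squares 42 °C arrays. The 3 arrays lowest for PAP10, at 351 to 375, are also the 3 lowest for PAP1, at 127 to 206.

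Other genes of phosphate release, of ATP outside the cell and of its signalling were sparse among the named probe sets. Of 3 other probe sets on the list of phosphatases and phosphate supply, which include both of PAP1, 1 fell. It was the first probe set of PAP1, named above for its likeness to PAP10. Of all tested probe sets, 4.59% were called lower. The median heat change of the 3 was -0.33 against -0.05 for all tested probe sets. Whether PAP1 is a phosphatase is not known here, so these 3 values do not describe phosphatases. The third, pldd, whose name is that of a phospholipase D, had -0.33 ± 0.24 (SE, limma adjusted p = 0.443). It passed with the ratio covariate (-0.68, adjusted p = 0.0416) and under scaling to the spikes (-0.81, adjusted p = 0.0260). On the nucleotide list only 2 annexin probe sets were left beside APY1, and neither passed. Annexins, which bind membranes in a calcium-dependent way, had -0.43 ± 0.27 (LOC107913673) and +0.48 ± 0.33 (LOC107905123), with limma adjusted p = 0.358 and 0.394. The former passed under scaling to the spikes (-0.93, adjusted p = 0.0309), and the latter turned sign there and with the ratio covariate. Scaling to the spikes called 5461 of 16820 probe sets lower and moved the median of all to -0.51, so passing there is common. With the ratio covariate 543 were called lower.

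Of 12 tested probe sets on the list of calcium sensors and MAP kinases, which pass on signals from the cell surface, 1 fell and 0 rose, where 4.59% of all tested probe sets were called lower and 4.22% higher. Their median was -0.21, against -0.05 for all tested probe sets. MPK3 (LOC107959059), which acts in stress and defence signalling in Arabidopsis, fell by 1.07 ± 0.30 (SE) on the log2 scale at 1 of its 4 tested probe sets (limma adjusted p = 0.0472). The other 3 probe sets of that locus had -0.33 ± 0.25, -0.63 ± 0.27 and +0.13 ± 0.43 and did not pass (limma adjusted p = 0.449, 0.169 and 0.886). The call thus rested on 1 of 4 probe sets, and differences between them were not tested. The probe set that passed was dim, with means of 37.9 ± 10.3 (SD, n = 3) and 74.9 ± 51.3 at 32 °C and 14.3 ± 2.40 and 18.6 ± 15.0 at 42 °C in Sicala 45 and Sicot 53. Leaving out any 1 of 9 arrays ended the call (adjusted p at most 0.118). The call held when either replicate 3 at 32 °C or replicate 1 at 42 °C of Sicot 53 was left out, and without replicate 2 at 32 °C of Sicot 53 the probe set was below the filter. Median centring (adjusted p = 0.0641), no filter (0.0591), a pseudocount of 64 (0.0602) and the ratio covariate (0.137) ended the call too. MAPKKK (LOC107959605) had +0.62 ± 0.20 (limma adjusted p = 0.0726). It passed with array weights (adjusted p = 0.0398) and without replicate 3 of Sicala 45 at 32 °C (+0.75, adjusted p = 0.0398). Another probe set of this locus had +0.50 ± 0.22 and did not pass (limma adjusted p = 0.183). No probe set matched the list of heat shock genes, which was not analysed here. No member of these gene lists passed the cultivar comparison.

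Over the whole array, 1481 of 16820 tested probe sets (8.8%) passed for averaged heat, 709 higher (4.22%) and 772 lower (4.59%). Median centring gave 882 higher and 527 lower, and scaling to the spikes 278 higher and 5461 lower. Trimmed mean signals were 500 on every array, and any 2 arrays of a group had an r of 0.914 to 0.968 between their log2 values across tested probe sets. Leaf markers RCA1, PEPC1 and GOX had a summed signal of 26599 to 53155 over the 12 arrays. No marker list had a call for averaged heat among its 3 mesophyll, 23 fibre and trichome, 3 vascular and 7 epidermal probe sets, and guard cell markers had no match. The fibre and trichome list had a summed signal of 49482 to 78161 in Sicala 45 and 52052 to 62563 in Sicot 53 at 32 °C. At 42 °C it was 38355 to 69991 and 43407 to 59081, so the temperatures overlapped. The brightest probe sets of the list were those of EXPA3D and FSLTP2, with means up to 16997 in Sicala 45 at 32 °C. These sums therefore follow mainly these genes and do not count cells. The median heat change of the list was -0.24, against -0.05 for all tested probe sets, with 15 of 23 values negative and 8 positive. For the cultivar comparison the median of the list was -0.31, against -0.02 for all tested probe sets. Several of its probe sets belong to the same gene. It had 1 call, lower in Sicot 53, where 0.101% of all tested probe sets were called lower. That was EXP (LOC107891056) at -2.92 (limma adjusted p = 0.0233), and another probe set of this locus had -0.33 (limma adjusted p = 0.9999). The part of fibre and trichome cells in the APY1 values was not tested.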

How the data were processed

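RNA was extracted with a hot borate method and labelled with biotin, per the labels' protocols. The deposited intensity values are MAS5 signals on a linear scale, per the submitters' processing notes, and each array had been scaled by the authors to one target, as a trimmed mean of 500 from the 2nd to the 98th percentile shows. Build, version and detection calls are not given in the sources used here. From the deposited values, log2(signal + 16) was computed, 103 control probe sets and the dimmest 30% by mean log2 value were left out (a filter on the mean signal had been run first, and was replaced after its counts had been seen), and limma 3.58.1 in R 4.3.3 was fitted to the 4 groups over all 12 arrays (eBayes with an intensity trend, two-sided, Benjamini-Hochberg adjustment over 16820 probe sets, threshold 0.05). Folds are on this scale and understate changes of dim probe sets. On simulated data with 200 changed probe sets of 16820, the fit recovered 44% of 2-fold and 89% of 4-fold changes for averaged heat, 47.5% and 92% for the averaged cultivar difference, and 0% and 45.5% for the difference between heat changes. Recovery depends on how many probe sets change. The measured data had 1481 calls for averaged heat, so the shares for heat need not hold there.

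Gene names came from the platform annotation, in which 697 probe sets have 1 gene symbol, 46 several and the rest none listed, and from a gene table of assembly Gossypium_hirsutum_v2.1, which named 318 of the 697, 258 of them tested. The members and the 9 gene and marker lists were chosen with earlier results of these data known. Genes named beside the members were every list member called for averaged heat, otherwise the 2 of lowest p per list, and the 5 named genes of highest Pearson r with each member. Correlations over 6 arrays were tested by exact permutation (720 orders, two-sided). The 25 alternatives were pseudocounts of 1 and 64, quantile normalization, median centring, scaling to the spikes, no filter and a 50% filter, no trend, array weights, the replicate number as a block, the 3'/5' ratio covariate, dropping both arrays whose ubq11 ratio exceeds 20, dropping each array in turn, and, chosen after seeing the data, the filter on the mean signal. Between same-numbered arrays, r of deviations from group means took both signs (-0.480 to 0.457). With 3 arrays a group, this cannot settle whether the numbers pair the samples. At 42 °C the ubq11 ratio was lowest in replicate 1 (6.39 in Sicala 45, 7.99 in Sicot 53) and highest in replicate 2 (24.6 and 41.5). PAP10 was highest in replicate 1 and lowest in replicate 2 of both cultivars at 42 °C. Plots were made in Python 3.11.15 (matplotlib 3.10.9).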

Additional observations from a re-analysis of the deposited data

How the results depend on the processing

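The heat values of APY1 and PAP10 stayed negative in both cultivars under all 25 alternatives, a description, as the genes had been chosen for such falls. Averaged over cultivars they were between -1.59 and -0.96 for APY1 and between -1.66 and -0.71 for PAP10. In Sicot 53 they were between -1.18 and -0.46 for APY1 and between -1.37 and -0.33 for PAP10. The PAP10 value of -0.33 ± 0.21 (SE), with the ratio covariate, was not clear of 0. Scaling to the spikes moved APY1 to -1.59 averaged, -2.002 in Sicala 45 and -1.18 in Sicot 53, and turned the sign of the averaged cultivar difference of APY1 (-0.27) and PAP10 (-0.012). Array weights turned that of APY1 too (-0.15), and leaving out single arrays gave -0.10 to +0.11. No alternative brought either cultivar difference or the PAP10 difference between heat changes past the threshold (limma adjusted p at least 0.564, 0.609 and 0.814). Probe sets called for averaged heat numbered 5739 with scaling to the spikes, 2954 with array weights and 780 without the 2 arrays of high ubq11 ratio, and 760 to 1675 without single arrays. Of these counts, 760 (Sicala 45 at 32 °C replicate 1), 927 (replicate 2 there), 804 (Sicot 53 at 32 °C replicate 1), 897 and 826 (Sicot 53 at 42 °C replicates 2 and 3) were more than 1.5 times below the main count. The filter on the mean signal, chosen after seeing the data, gave 1484. The cultivar count was 61 with array weights and 24 to 37 without single arrays, and the count for the difference between heat changes was 0 to 1, the 1 arising without Sicala 45 at 42 °C replicate 3. The annexin LOC107905123 turned sign with scaling to the spikes (-0.023) and the ratio covariate (-0.0090). With the replicate number as a block, a pairing that was not settled, 1316 probe sets were called for averaged heat, 28 for the cultivar difference and 0 for the difference between heat changes. The block left the members' values as they were, with the averaged heat values at -1.11 ± 0.23 SE for APY1 and -1.16 ± 0.25 for PAP10, and MPK3 no longer passed (limma adjusted p = 0.0597). Except where a value or a setting's own construction shows it, the cause was not tested. With 3 arrays a group and no detection calls, signal over background is unknown and the number of arrays limits precision.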
